A study of Homo sapiens with 6 samples.

Results

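Metallothioneins are small proteins that bind zinc and copper through clusters of cysteines, buffer these metals inside the cell and hold toxic metals such as cadmium. Their genes are switched on by zinc through the transcription factor MTF1, which binds short metal response elements (MREs) in their promoters, and also by glucocorticoids and by inflammatory signals such as IL-6 in the liver, a main site of their production. This report covers 8 human metallothionein genes, chosen by name: MT2A, MT1E, MT1G, MT1F, MT1X, MT1A, MT1M and MT1H. They are 8 of the 23524 genes in the expression table, and 7 of them, all but MT1H, were among the 17222 genes whose mean reached 0.1 FPKM and that could be tested.

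The cells were Hep G2, a human liver tumor line that grows in culture. RNA-Seq compared 3 libraries of control cells, infected with an empty lentivirus vector, with 3 libraries of cells stably overexpressing EFTUD2, a GTPase of the spliceosome, from the same kind of virus. Both kinds of cells had been selected in puromycin, and the labels number the 3 libraries of a group without naming their cultures. The study describes its data in general as coming from independent experiments, but does not say how the RNA-Seq libraries were grown, so p-values measure only the spread between these libraries, which may be technical. FPKM values are fragments of a gene scaled to the length of its transcript and to the depth of the library. They allow a rough comparison between genes and between libraries, but do not correct for differences in composition between libraries. Values of a group are listed below in the order of replicates 1, 2 and 3.

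EFTUD2 itself had 41.1, 54.4 and 46.3 FPKM in the controls, against 106.6, 102.9 and 109.5 FPKM with the overexpression vector, a ratio of 2.25 between the means (log2 fold change 1.16, standard error 0.12, limma adjusted p = 0.13). Liver genes were high in every library, with ALB between 1773 and 4732 FPKM and AFP between 745 and 2499 FPKM, and the sum over all genes lay between 404342 and 434542 FPKM. Control replicate 1 and EFTUD2 replicate 3, in which the summed metallothioneins were lowest in their groups, were picked with those values in view and set against their groups. The same figures are not given for the other libraries. Over the 6401 genes whose mean reached 10 FPKM, EFTUD2 replicate 3 had a median of 0.865 times the mean of EFTUD2 replicates 1 and 2, and 5.94% of these genes were at 0.5 times or less. Control replicate 1 had a median of 0.963 times the other controls, with 0.578% of the genes at 0.5 times or less. The deviations of these 2 libraries from their group means correlated over the tested genes (Pearson r = 0.382), although nothing in the labels links them. Other pairs came close: control replicate 2 correlated at 0.353 with EFTUD2 replicate 2 and at 0.321 with EFTUD2 replicate 1, against -0.397 with EFTUD2 replicate 3. Deviations within a group sum to 0, so these values are tied to each other and do not mark out 1 pair.

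The 8 genes lie side by side on chromosome 16, from 56608584 to 56684196 (GRCh38, RefSeq annotation), a stretch of 75.6 kb. MT2A comes first (56608584 to 56609497), followed by MT1E (56625781 to 56627112), MT1M (56632659 to 56633981), MT1A (56638666 to 56640087), MT1F (56657959 to 56659303), MT1G (56666730 to 56668065), MT1H (56669814 to 56671129) and MT1X (56682470 to 56684196). The coding sequence of each member, taken from GENCODE release 29, is 186 bases long and holds 61 codons before the stop, of which 20 encode cysteine, the residue that binds the metal. Between 2 members, 88.7% to 95.2% of the coding bases were identical. Below are the coding sequences of MT2A, the member with the highest level, of MT1G, which differs from it at 9 bases, and of MT1H, which differs at 15 and was hardly detected in these cells. Capitals mark the bases that differ from MT2A.

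MT2A: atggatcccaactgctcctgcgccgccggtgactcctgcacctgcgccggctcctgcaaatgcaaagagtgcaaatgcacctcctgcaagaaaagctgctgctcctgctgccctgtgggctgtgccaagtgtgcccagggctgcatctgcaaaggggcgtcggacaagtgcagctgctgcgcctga
MT1G: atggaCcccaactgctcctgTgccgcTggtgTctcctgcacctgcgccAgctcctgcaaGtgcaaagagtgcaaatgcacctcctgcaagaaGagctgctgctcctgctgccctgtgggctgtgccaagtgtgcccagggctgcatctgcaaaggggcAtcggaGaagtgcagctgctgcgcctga
MT1H: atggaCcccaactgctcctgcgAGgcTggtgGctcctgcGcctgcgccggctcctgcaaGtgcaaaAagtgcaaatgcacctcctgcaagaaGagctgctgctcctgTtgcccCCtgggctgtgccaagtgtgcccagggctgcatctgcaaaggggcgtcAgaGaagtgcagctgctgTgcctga

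Such likeness matters for how reads were divided between the genes. Of the stretches of 50 bases in the protein-coding transcripts of a member, 43.6% for MT1X, 16.5% for MT1G, 15.8% for MT1H, 9.87% for MT1M and 3.27% to 7.10% for the others also occur in a transcript of another gene, nearly always another metallothionein gene or pseudogene. The levels of single members, that of MT1X most of all, therefore carry an uncertainty from the assignment of shared reads, which the sum over the family carries less. How the reads were assigned cannot be checked from FPKM values.

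Promoter sequences from RefSeq (GRCh38.p14) were at hand for 3 of the 8 members. The 250 bases before the start site are shown for MT2A (chr16:56608334-56608583), MT1X (chr16:56682220-56682469) and MT1H (chr16:56669564-56669813), all on the plus strand, since they hold the elements through which zinc acts on this family. Capitals mark matches to the core of the MRE, TGCACNC or TGCGCNC on either strand.

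MT2A: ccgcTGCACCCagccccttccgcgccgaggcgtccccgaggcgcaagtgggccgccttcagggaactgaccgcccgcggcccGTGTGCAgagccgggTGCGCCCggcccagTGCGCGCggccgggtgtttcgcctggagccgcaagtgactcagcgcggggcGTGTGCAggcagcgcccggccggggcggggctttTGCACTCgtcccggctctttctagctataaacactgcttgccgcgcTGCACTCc
MT1X: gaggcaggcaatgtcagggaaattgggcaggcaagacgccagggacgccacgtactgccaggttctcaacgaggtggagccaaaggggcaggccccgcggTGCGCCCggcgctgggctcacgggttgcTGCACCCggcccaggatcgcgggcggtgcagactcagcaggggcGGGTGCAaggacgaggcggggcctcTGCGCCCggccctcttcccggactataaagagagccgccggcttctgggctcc
MT1H: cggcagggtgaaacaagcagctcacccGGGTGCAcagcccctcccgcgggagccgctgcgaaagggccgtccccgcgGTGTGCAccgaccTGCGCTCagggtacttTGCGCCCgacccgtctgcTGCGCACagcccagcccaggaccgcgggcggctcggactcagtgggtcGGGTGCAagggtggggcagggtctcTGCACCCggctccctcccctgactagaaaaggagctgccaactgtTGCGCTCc

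The MT2A promoter held 7 matches to the MRE core, that of MT1X 4 and that of MT1H 8. Of 35116 promoters of this length, 24.8% held at least 1 match and 1.58% held 3 or more. A TATA box (TATAAA, either strand) was found in MT2A and MT1X but not in MT1H, against 10.7% of all promoters. The GC box (GGGCGG) matched 2 times in MT2A and in MT1X and 1 time in MT1H, and was in 42.6% of all promoters. The core of the antioxidant response element (TGACNNNGC) was found 1 time each in MT2A and MT1X and not in MT1H, and in 10.9% of all promoters. Of the matches to these other motifs, 1 overlapped an MRE core, a GC box of MT1X. They describe the letters only, and promoters of the other 5 members are not shown.

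Across the 6 libraries the family was dominated by MT2A, the most widely expressed human metallothionein, which was at 125.4, 380.5 and 398.9 FPKM in control replicates 1 to 3. With EFTUD2 it reached 517, 765 and 306.9 FPKM. Control replicate 1 was thus far below the other controls, EFTUD2 replicate 3 fell among the controls, and the groups overlapped. The ratio of the group means was 1.76, with 301.6 ± 152.8 FPKM in control and 529.6 ± 229.3 FPKM in EFTUD2-overexpressing cells (SD, n = 3 each). On the log2(FPKM + 1) scale the fold change was 0.89 (standard error 0.52, 95% interval -0.34 to 2.12), with a limma adjusted p of 0.45 over all genes tested and an exact two-sided permutation p of 0.3, where 3 libraries against 3 cannot give less than 0.1.

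MT1E, an inducible member of the MT1 group, was the second in level in 5 of the 6 libraries. It was at 43.95, 151.0 and 156.1 FPKM in the controls, against 185.2, 250.9 and 77.8 FPKM with EFTUD2. Again the lowest library of each group was control replicate 1 and EFTUD2 replicate 3, and the latter lay below control replicates 2 and 3. Its log2 fold change was 0.59 (standard error 0.60, limma adjusted p = 0.63).

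MT1G, whose promoter is often found methylated in liver tumors, stood at 23.5, 119.7 and 126.8 FPKM in the controls, against 155.9, 261.1 and 59.2 FPKM with EFTUD2. It had the widest range of the abundant members, with EFTUD2 replicate 2 at 11.1 times control replicate 1. The log2 fold change was 0.90 (standard error 0.77, limma adjusted p = 0.57), and the groups overlapped.

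MT1F was at 12.7, 45.3 and 54.8 FPKM in the controls, against 60.3, 96.98 and 36.4 FPKM with EFTUD2 (log2 fold change 0.89, standard error 0.58, limma adjusted p = 0.48). MT1X had about the same level as MT1F in the controls, 13.3, 58.0 and 52.9 FPKM, and was at 58.9, 86.4 and 18.3 FPKM in the EFTUD2 replicates. EFTUD2 replicate 3 was here far below control replicates 2 and 3, and the log2 fold change was the smallest of the 7 members tested, 0.39 (standard error 0.72, limma adjusted p = 0.80). MT1X was above MT1F in control replicates 1 and 2 and below it in the other 4 libraries, so these neighbours in the order of levels did not differ beyond the spread between libraries.

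The last 3 members were low. MT1M, a member known from liver, was at 0.33, 0.72 and 1.14 FPKM in the controls, against 2.39, 6.10 and 0.93 FPKM with EFTUD2. EFTUD2 replicates 1 and 2 were above all controls and replicate 3 lay between control replicates 2 and 3. With a ratio of 4.30 between the means and a log2 fold change of 1.08 (standard error 0.46), MT1M had the lowest unadjusted p of the members, 0.0503 from limma, and an adjusted p of 0.40.

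MT1A was at 1.04, 2.55 and 3.19 FPKM in the controls, against 2.25, 4.26 and 3.95 FPKM with EFTUD2 (log2 fold change 0.49, standard error 0.31, limma adjusted p = 0.47). It was the 1 tested member for which EFTUD2 replicate 3 was not the lowest of its group. MT1H was listed at 0, 0.07 and 0 FPKM in the controls, against 0.07, 0.15 and 0 FPKM with EFTUD2, too low to be tested. Of other metallothionein genes looked for, MT1B was at 0 to 0.43 FPKM in the controls and at 0.22 to 1.35 FPKM in EFTUD2-overexpressing cells, and MT3, a member of the brain, was listed at 0 in every library.

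**Figure D1:**
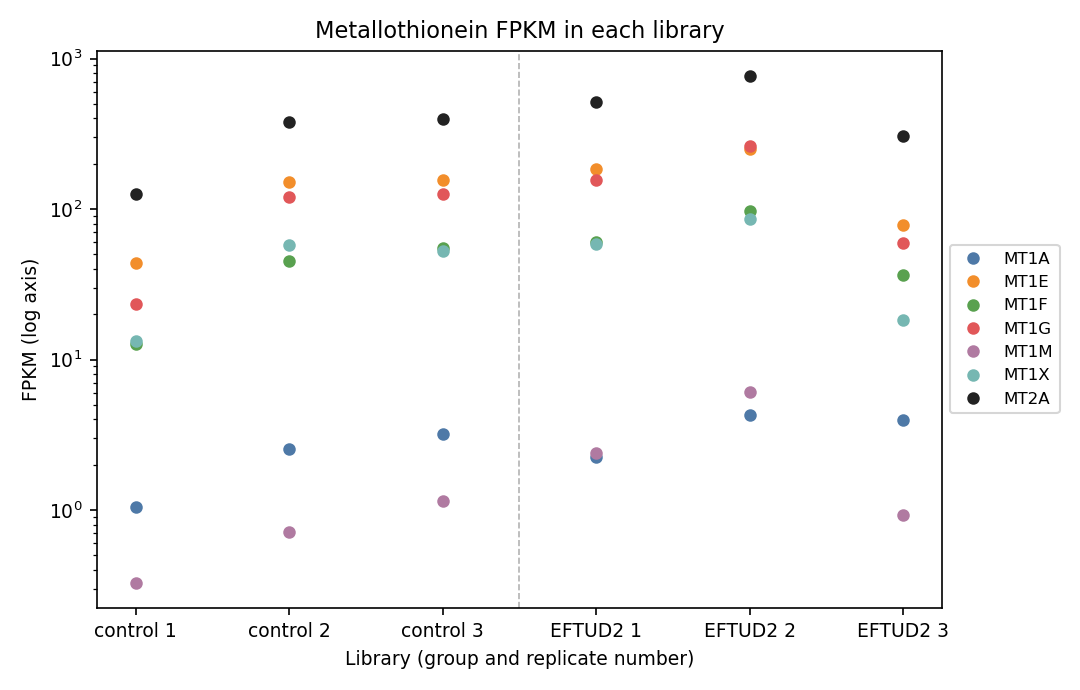
FPKM (log axis) of the 7 tested members in each of the 6 libraries, 1 point per library and gene, with controls left of the dashed line and EFTUD2 libraries right of it. Control replicate 1 was the lowest control for every member shown, and EFTUD2 replicate 3 the lowest of its group for all but MT1A.

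By limma, 0 of the 7 members tested had an adjusted p under 0.05, where 0.0% of all genes tested did, and 0 had an unadjusted p under 0.05 in either direction. Over all genes tested this unadjusted threshold was passed by 4.4% as higher and 7.9% as lower in EFTUD2-overexpressing cells. The log2 fold change was above 0 in 7 of 7 members tested, against 37.3% of all genes, and the median was 0.89, against -0.07 over all genes tested. As the members vary together from library to library, these 7 signs do not count as 7 separate observations. In 0 of the 7 members were all EFTUD2 libraries above all controls, a pattern found in 7.92% of all genes tested, and in 0 were they all below, against 19.4%.

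Summed over the 8 members, metallothionein mRNA amounted to 220.3, 757.8 and 793.8 FPKM in control replicates 1 to 3 and to 981.9, 1471 and 503.4 FPKM in EFTUD2 replicates 1 to 3. This was 0.0545%, 0.182% and 0.191% of the FPKM total of the controls and 0.236%, 0.347% and 0.116% of that of the EFTUD2 libraries. EFTUD2 replicates 1 and 2 held more than any control, but EFTUD2 replicate 3 held 0.852 times the control mean. Between the group means, 590.6 ± 321.2 and 985.4 ± 483.8 FPKM (SD, n = 3 each), the ratio was 1.67, while the highest control was 3.60 times the lowest and the highest EFTUD2 library 2.92 times the lowest. The difference between the groups was thus smaller than the differences within them.

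**Figure D2:**
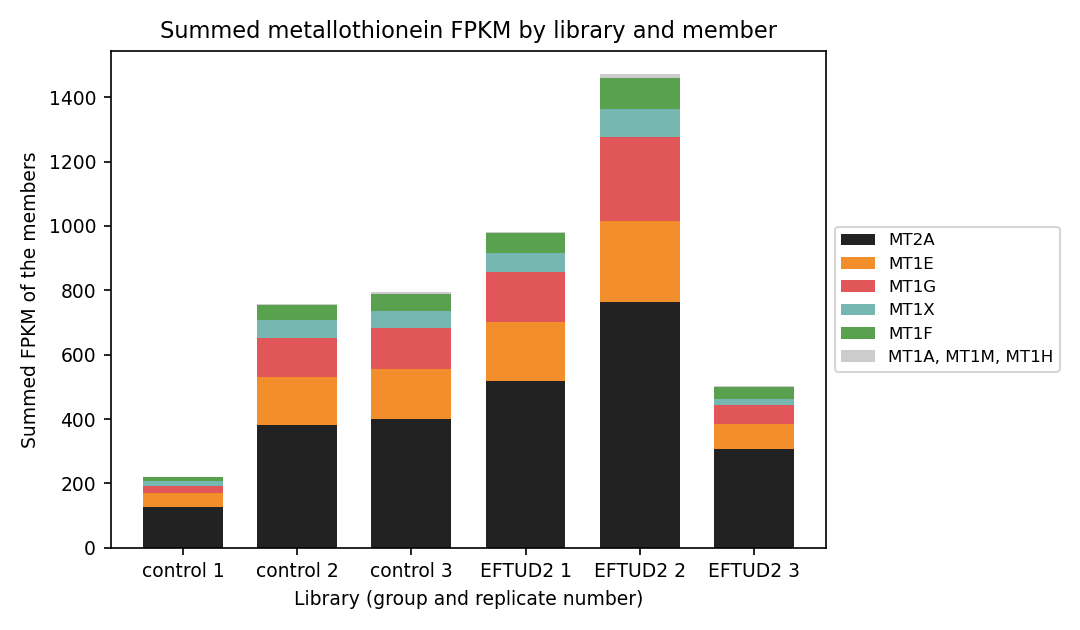
Summed FPKM of the members in each library, stacked by member, with MT1A, MT1M and MT1H together. The sum ran from 220.3 FPKM in control replicate 1 to 1471 FPKM in EFTUD2 replicate 2, and MT2A made up 50.2% to 61.0% of it.

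The spread within the groups was wide in the 5 abundant members. Among the controls, the SD of the log2 values was 0.94 for MT2A, 1.03 for MT1E, 1.1 for MT1F, 1.15 for MT1X and 1.35 for MT1G, whereas its median over those 6401 genes was 0.13. Only 0.0781% of those genes varied as much between controls as MT1G, and 0.516% as much as MT2A. Control replicate 1 was at 0.322 times the mean of the other controls for MT2A, and at 0.191 times for MT1G. Among the EFTUD2 libraries the SD of these 5 was between 0.66 for MT2A and 1.13 for MT1X, with a median of 0.21 over the same genes. The low members MT1A and MT1M had SDs of 0.54 and 0.34 among the controls and of 0.38 and 0.94 among the EFTUD2 libraries. EFTUD2 replicate 3 was at 0.479 times the mean of the other EFTUD2 libraries for MT2A, 0.284 times for MT1G and 0.252 times for MT1X, but at 1.21 times for MT1A.

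How much the groups differed depended on single libraries. Without control replicate 1, the log2 fold change was 0.35 for MT2A, 0.26 for MT1F, 0.12 for MT1G, 0.00 for MT1E and -0.27 for MT1X. Without EFTUD2 replicate 3, it was 1.23 for MT2A, 1.24 for MT1F, 1.49 for MT1G, 1.08 for MT1E and 1.02 for MT1X. Without EFTUD2 replicate 2, the highest of its group in each member, it was 0.57 for MT2A, 0.54 for MT1F, 0.43 for MT1G, 0.24 for MT1E and -0.07 for MT1X. The log2 ratio of the summed FPKM, 0.74 with all libraries, was 0.35 without control replicate 1, 0.33 without EFTUD2 replicate 2 and 1.05 without EFTUD2 replicate 3. All EFTUD2 libraries were above all controls for 6 of the 7 members without EFTUD2 replicate 3 (14.8% of all genes), for 1 without EFTUD2 replicate 1 (9.89%) and for 1 without control replicate 3 (10.2%). Leaving out both control replicate 1 and EFTUD2 replicate 3 (a choice made with these values in view) gave 0.69 for MT2A, 0.61 for MT1F, 0.71 for MT1G, 0.49 for MT1E, 0.36 for MT1X, 0.10 for MT1A and 1.35 for MT1M. In that comparison of 2 libraries with 2, the EFTUD2 libraries were above the controls for 6 of the 7 members tested, all but MT1A, where 21.2% of all genes tested showed this. An unadjusted p under 0.05 from limma was found for 5 members as higher (MT1E, MT1F, MT1G, MT1M and MT2A), against 9.3% of all genes, and for 0 as lower, against 10.5%. An adjusted p under 0.05 was found for 0 members and for 0.0938% of all genes. The log2 fold change was above 0 in 7 of 7 members (42.2% of all genes), and in 0 were both EFTUD2 libraries below both controls (33.2%).

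**Figure D3:**
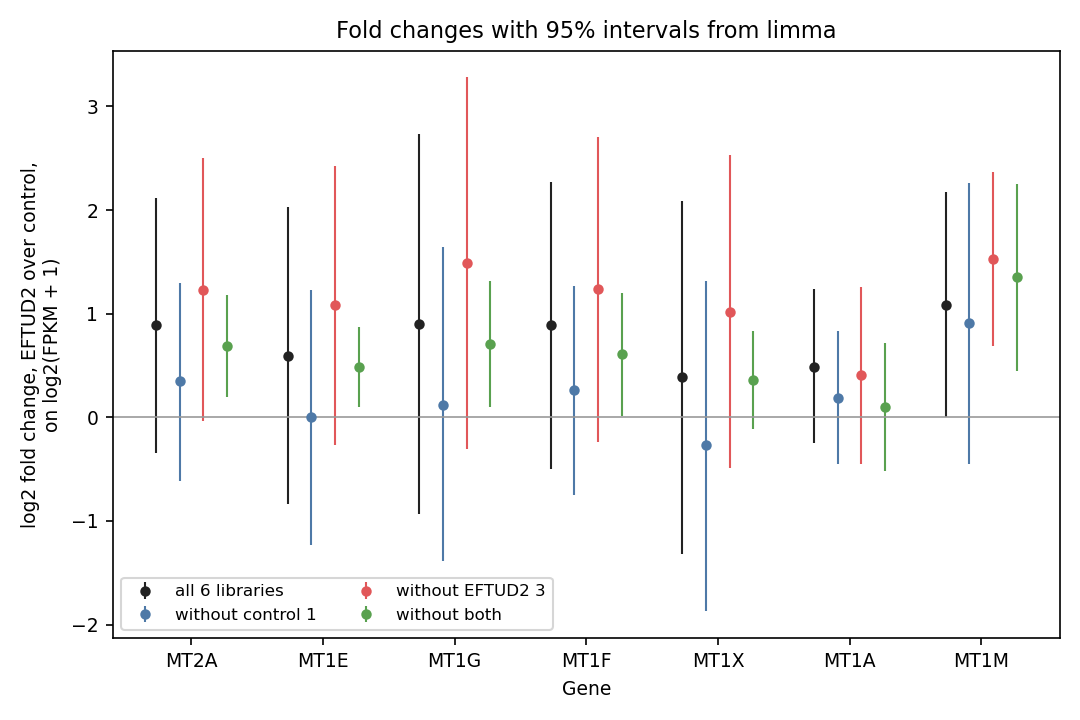
The log2 fold change of each tested member, EFTUD2 over control on log2(FPKM + 1), with its 95% interval from limma, for all 6 libraries and without control replicate 1, EFTUD2 replicate 3 or both. With all libraries the intervals of MT2A, MT1E, MT1G, MT1F, MT1X and MT1A spanned 0 widely, and the interval of MT1M just reached it.

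Inside the family, the highest share of a member in the summed FPKM was 1.21 times its lowest for MT2A, 1.25 times for MT1F, 1.29 times for MT1E, 1.66 times for MT1G and 2.10 times for MT1X over the 6 libraries, whereas the sum itself ranged over 6.68 times. The shares of the low members ranged more widely than these, over 3.43 times for MT1A and 4.37 times for MT1M. MT1E, MT1F, MT1G, MT1X and MT2A followed each other across the 6 libraries with Pearson correlations from 0.91 to 1.0 on the log2 scale, MT1M followed these 5 with 0.73 to 0.86, and MT1A correlated with the other 6 at 0.52 to 0.80. These correlations rest on 6 points that share library and group, and in part on shared reads. MT2A contributed 50.2% to 57.0% of the summed FPKM in the controls and 52.0% to 61.0% in the EFTUD2 libraries, and MT1G 10.7% to 16.0% and 11.8% to 17.8%.

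For 3 of the 8 shares the groups did not overlap, 1 with EFTUD2 above and 2 with EFTUD2 below the controls. Among the levels of all genes tested, 7.92% lay wholly above and 19.4% wholly below. MT1E made up 19.95%, 19.9% and 19.7% of the sum in control replicates 1 to 3 and 18.9%, 17.1% and 15.5% in EFTUD2 replicates 1 to 3, so that its share was lower in each EFTUD2 library. MT1X made up 6.03%, 7.65% and 6.66% in the controls and 5.997%, 5.88% and 3.64% in the EFTUD2 libraries, the highest of which was close to the lowest control. MT1M, at 0.150%, 0.0950% and 0.144% in the controls, was at 0.243%, 0.415% and 0.185% in the EFTUD2 libraries. Each of these gave an exact two-sided permutation p of 0.1, the smallest that the design allows, among 8 shares compared. Shares of 1 sum are tied to each other, so that a higher share of 1 member lowers the others.

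**Figure D4:**
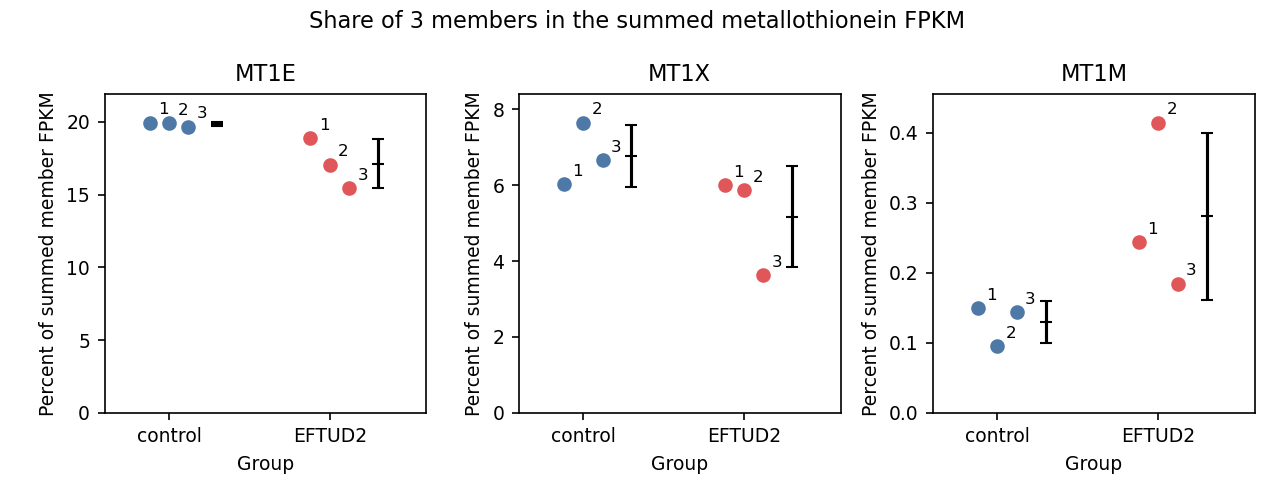
Share of MT1E, MT1X and MT1M in the summed member FPKM of each library, in percent, with replicate numbers beside the points and the mean with its SD (n = 3) beside each group. The 3 controls of MT1E lie between 19.7% and 19.95%, above the 3 EFTUD2 libraries, while for MT1M the EFTUD2 libraries lie above.

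Genes around the cluster were described beside it. Of the 10 nearest other protein-coding genes, 5 on each side, 9 could be tested, with log2 fold changes between -0.44 and 0.45 and correlations with the summed member FPKM between -0.72 and 0.95 over the 6 libraries. OGFOD1, at 129.5 kb before the cluster, was lower in each EFTUD2 library than in any control (36.6 ± 3.65 against 27.0 ± 5.54 FPKM, SD, n = 3 each), with a limma adjusted p of 0.40. Of all genes tested, 19.4% were lower in this way and 7.92% higher. NUP93, a protein of the nuclear pore and the nearest gene after the cluster at 45.9 kb, was at 30.8 ± 3.90 and 28.6 ± 2.94 FPKM. On the side after the cluster, 5 of 5 correlations and 4 of 5 log2 fold changes were above 0, and on the side before it 1 of 4 and 1 of 4. Of all genes tested, 37.3% had a log2 fold change above 0, and the share with a correlation above 0 is not given. With so few genes on each side, a difference between the sides was not tested. CETP, which transfers lipids between lipoproteins, was at 0.243 ± 0.071 and 0.48 ± 0.132 FPKM, and the sodium chloride transporter SLC12A3 at 0.00667 and 0.267 FPKM in the means, both higher in each EFTUD2 library than in any control (limma adjusted p = 0.40 and 0.43). Both were low, at no more than 0.63 FPKM in any library. NLRC5, a regulator of MHC class I genes, had a correlation of 0.86 and a log2 fold change of 0.45 (limma adjusted p = 0.42). HERPUD1, a gene of the endoplasmic reticulum stress response at 247.9 kb, had the correlation of 0.95, with 35.8, 51.8 and 54.4 FPKM in the controls and 60.1, 61.4 and 53.0 FPKM in the EFTUD2 libraries.

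Zinc transporters were described from lists of the SLC30 family, which moves zinc out of the cytosol, and the SLC39 family, which moves it in. Over all genes tested, an unadjusted p under 0.05 from limma was reached by 4.4% as higher and 7.9% as lower, with a median log2 fold change of -0.07. Among 7 SLC30 genes tested, 2 were lower in each EFTUD2 library than in any control and 0 higher (19.4% and 7.92% of all genes). Among 12 SLC39 genes tested, 0 were lower and 1 higher in this way. Of the 7 SLC30 genes, 0 had an unadjusted p under 0.05 (median log2 fold change -0.07), and of the 12 SLC39 genes, 1 did, as higher (median -0.02). That gene was SLC39A8 (ZIP8), at 0.22, 0.16 and 0.20 FPKM in the controls, against 2.56, 4.73 and 0.31 FPKM with EFTUD2 (limma adjusted p = 0.40). SLC39A14 (ZIP14), a zinc and iron importer of the liver, was at 205.8 ± 26.4 and 230.5 ± 19.7 FPKM (SD, n = 3 each; log2 fold change 0.17, limma adjusted p = 0.56). The abundant importer SLC39A7, which releases zinc from the endoplasmic reticulum, was at 105.2 and 102.1 FPKM in the means of the 2 groups.

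Across libraries, these 19 transporters correlated with the summed member FPKM at values from -0.96 to 0.86. Of the 19, 5 were at 0.5 or more, among them SLC39A1 at 0.77, and 5 at -0.5 or less, among them SLC39A7 at -0.77. Of 6396 genes outside the family whose mean reached 10 FPKM, 124 were at 0.9 or more and 150 at -0.9 or below. The ends of the range of the transporters were chosen after their values were seen, and a part of zinc or MTF1 in them was not tested. SLC30A1 (ZnT1), a zinc exporter of the plasma membrane known as a target of MTF1, had the highest value. It was at 18.7, 25.0 and 22.5 FPKM in the controls, against 26.0, 32.0 and 17.6 FPKM with EFTUD2, lowest in the same library of each group as the metallothioneins. This was not particular to SLC30A1. Control replicate 1 was the lowest control for 5 of the 7 SLC30 genes tested, and EFTUD2 replicate 3 the lowest of its group for 6. Of the 12 SLC39 genes tested, these numbers were 2 and 5. SLC39A10 (ZIP10), a zinc importer that MTF1 is known to hold down, had the lowest correlation of the 19. It was at 12.9, 6.67 and 7.27 FPKM in the controls, against 6.52, 4.63 and 10.8 FPKM with EFTUD2, highest where the metallothioneins were lowest. Neither differed between the groups beyond its spread, with limma adjusted p of 0.74 for SLC30A1 and 0.69 for SLC39A10.

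MTF1 itself was at 3.28, 3.63 and 3.24 FPKM in the controls, against 2.79, 3.17 and 2.06 FPKM with EFTUD2, below all controls in each (log2 fold change -0.27, standard error 0.16, limma adjusted p = 0.45). Of the 8 genes of the list of metal response regulators and targets, all tested, 0 passed the unadjusted threshold as higher and 1, MTF2, as lower (log2 fold change -0.34). Over all genes tested, 4.4% passed it as higher and 7.9% as lower. The median log2 fold change was -0.08 in the list, close to the -0.07 over all genes. HMOX1, which degrades heme and is induced by metals and oxidative stress, was at 13.0, 32.2 and 24.8 FPKM in the controls, against 35.8, 48.3 and 10.9 FPKM with EFTUD2. In each group HMOX1, named with its values seen, was thus lowest in the library in which the summed metallothioneins were lowest. Its correlation with their sum, 0.86, was the highest in a list that went down to -0.89, with TXNRD1 at 0.02 and NDRG1 at -0.07. NDRG1, at 43.0 ± 19.0 and 75.2 ± 17.3 FPKM (SD, n = 3 each; limma adjusted p = 0.40), was the 1 gene of the list with all EFTUD2 libraries above all controls (7.92% of all genes). For 3 of the list they were all below (19.4%).

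By the rule of likeness, the 5 genes outside the family that followed the summed metallothionein FPKM most closely over the 6 libraries, among 6396 whose mean reached 10 FPKM, were MGST3, NNT, PDHA1, TMEM258 and PRDX6, with Pearson r from 0.987 to 0.998. They are the highest of all these genes by choice, and 124 of the genes reached 0.9 while 150 were at -0.9 or below. MGST3, a microsomal glutathione transferase, was at 22.8, 35.9 and 36.6 FPKM in the controls, against 40.0, 47.4 and 30.3 FPKM with EFTUD2, so that its highest library was 2.08 times its lowest, against 6.68 times for the summed metallothioneins. NNT, which makes NADPH in mitochondria, ranged from 9.60 to 15.6 FPKM, and PRDX6, a peroxiredoxin, from 83.6 to 118.4 FPKM.

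**Figure D5:**
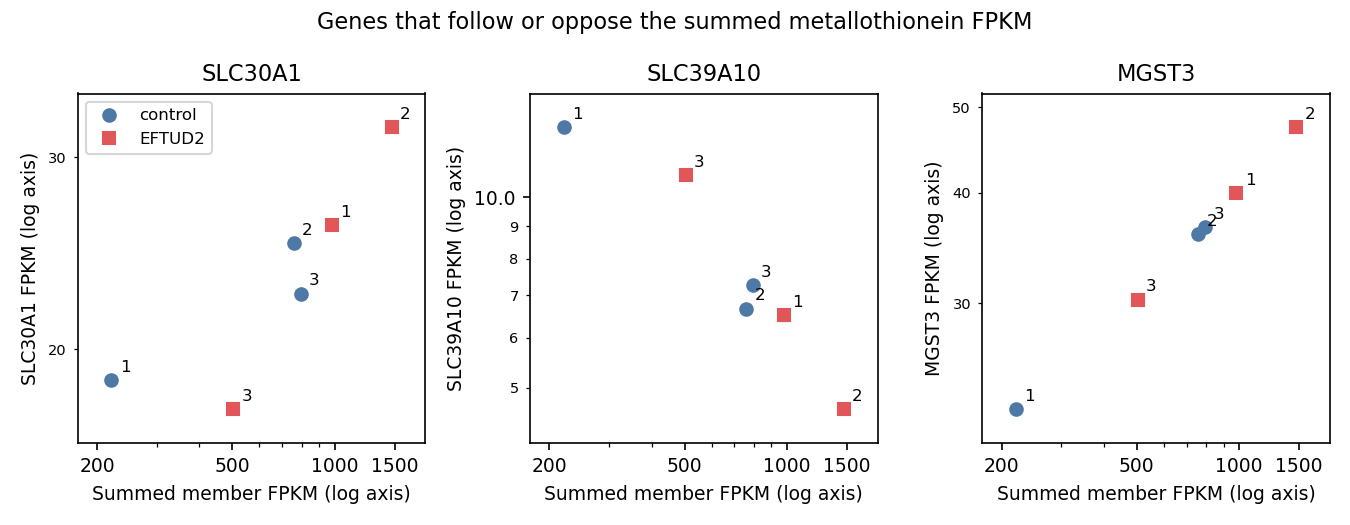
FPKM of SLC30A1, SLC39A10 and MGST3 against the summed member FPKM, both on log axes, 1 point per library with its replicate number, circles for control and squares for EFTUD2. SLC30A1 and MGST3 were low in control replicate 1 and EFTUD2 replicate 3, where SLC39A10 was high.

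Copper, the other metal that metallothioneins bind in the liver, has its own set of handling genes. Of 15 tested, 1 had an unadjusted p under 0.05 as higher and 0 as lower, against 4.4% and 7.9% of all genes (median log2 fold change -0.13). That gene, STEAP4, a metalloreductase, was listed at 0.01 FPKM in each control against 1.80, 3.81 and 0.23 FPKM with EFTUD2 (limma adjusted p = 0.40). The export pump ATP7B, whose loss causes Wilson disease, was at 19.8 ± 0.85 FPKM in control and 17.8 ± 2.40 FPKM in EFTUD2-overexpressing cells (SD, n = 3 each), lower in each EFTUD2 library than in any control (limma adjusted p = 0.56). It was 1 of 3 copper genes with all EFTUD2 libraries below all controls (19.4% of all genes). For 4 of the 15, STEAP4 among them, they were all above (7.92%).

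Glucocorticoids and the acute-phase response are other known inducers of metallothioneins, and lists of their genes were described beside them. Of 10 glucocorticoid genes tested, 2 passed the unadjusted threshold as higher and 0 as lower, against 4.4% and 7.9% of all genes. Their median log2 fold change was 0.26. SGK1 was at 6.65 ± 1.26 and 14.04 ± 5.43 FPKM (SD, n = 3 each) and TSC22D3 (GILZ) at 0.89 ± 0.15 and 2.16 ± 1.14 FPKM. In 3 of the 10, these 2 among them, all EFTUD2 libraries were above all controls (7.92% of all genes). In 1, FKBP5, they were all below (19.4%), with a log2 fold change of -0.25. Correlations of the 10 with the summed metallothionein FPKM ran from -0.74 to 0.75. Of 13 acute-phase genes tested, 6 passed the unadjusted threshold as higher and 0 as lower (median 0.68), against 4.4% and 7.9% of all genes, and 0 had an adjusted p under 0.05 from limma. In 7 of these 13, all EFTUD2 libraries were above all controls, against 7.92% of all genes tested. Among them was haptoglobin (HP), at 87.8, 111.2 and 182.3 FPKM in the controls and 447.7, 689.7 and 301.7 FPKM in the EFTUD2 libraries. Unlike the metallothioneins, HP separated the groups, with EFTUD2 replicate 3 again the lowest of its group. HAMP, which encodes the iron hormone hepcidin, stood at 7.17, 78.4 and 50.2 FPKM in the controls and 83.1, 136.9 and 63.6 FPKM in the EFTUD2 libraries, and was chosen after its values were seen for its correlation of 0.93 with the summed FPKM. The other acute-phase genes tested did not all run with the family, as the correlations in the list went down to -0.26. The lowest control was replicate 1 for 7 of the 13 and replicate 2 for 6, among them the fibrinogen genes FGA, FGB and FGG, SERPINA3 and A2M.

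AFP, a fetal liver protein that these tumor cells make, ran opposite to the family (r = -0.91 with the summed FPKM over 6 libraries, in a list whose values ran from there to 0.46). It stood at 2499, 845.7 and 1357 FPKM in the controls and 869.8, 744.9 and 1918 FPKM in the EFTUD2 libraries, highest in control replicate 1 and, within its group, in EFTUD2 replicate 3. Of the 12 hepatocyte markers, 2 passed the unadjusted threshold as higher and 1 as lower, against 4.4% and 7.9% of all genes. These 12 markers summed to 7660 to 11490 FPKM in the controls and 10336 to 15508 FPKM in the EFTUD2 libraries. Their part in the metallothionein levels was not tested.

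Markers of other cells were looked at beside these values. Over all genes tested, the unadjusted threshold was passed by 4.4% as higher and 7.9% as lower. Of 9 tested genes of a mesenchymal and keratin list of 12, 4 passed it as higher and 1 as lower. This list summed to 337.7 to 405.8 FPKM in the controls and 132.1 to 554.7 FPKM in the EFTUD2 libraries. In the controls most of this sum was keratin 19 (KRT19), the 1 that passed as lower, with means of 348.1 and 139.7 FPKM. In EFTUD2 replicates 1 to 3, KRT19 was at 163.0, 153.5 and 102.5 FPKM, where the list summed to 357.1, 554.7 and 132.1 FPKM. It was thus most of the sum in EFTUD2 replicate 3, but not in EFTUD2 replicates 1 and 2. Those that passed as higher were vimentin (VIM), with means of 0.0867 and 28.6 FPKM, CD44, with 0.0533 and 4.17 FPKM, keratin 7 (KRT7), with 0.967 and 28.9 FPKM, and keratin 17 (KRT17), with 1.41 and 70.4 FPKM. S100A4 was at 25.8 and 73.6 FPKM in the means of the 2 groups and did not pass. Of the 9 genes tested, 7 were highest among the EFTUD2 libraries in replicate 2 and 8 lowest in replicate 3, the libraries in which the summed metallothioneins were highest and lowest in that group. VIM, for example, had 23.2, 59.6 and 2.87 FPKM with EFTUD2, and 0.06, 0.08 and 0.12 FPKM in the controls. The share of all genes with this order is not given, and the order was not particular to this list. EFTUD2 replicate 3 was also the lowest of its group for 11 of 15 copper genes, 6 of 7 SLC30 genes and 8 of 13 acute-phase genes. Among 12 hepatocyte markers it was the lowest for 3. COL1A2 was listed at 0 throughout, DCN at no more than 0.04 FPKM and THY1 at no more than 0.01 FPKM. The part of these markers in the metallothionein levels was not tested. Of 2 macrophage genes tested, 1 passed it as higher, and the list of 7 summed to 17.6 to 31.5 FPKM in the controls and 26.6 to 35.7 FPKM in the EFTUD2 libraries, nearly all of it CD68, with TYROBP at 0 in every library. Of 3 endothelial genes tested, 2 passed it as higher, and the list of 6 summed to at most 1.6 FPKM in any library. Fewer cells with much metallothionein mRNA and less of it per cell cannot be told apart in RNA from whole cultures.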

How the data were processed

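The authors isolated RNA from Hep G2 cells, enriched mRNA by its poly-A tail and sequenced it on a BGI instrument. Values were deposited as FPKM per gene and library, rounded to 2 decimals, in 1 table of 6 libraries; the submitters' processing notes name HISAT2, Bowtie2, RSEM, DESeq2 and the build hg38, without roles or versions. The depth behind each value is unknown, so no counting interval is given, and columns of other samples were not present.

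Log2(FPKM + 1) was computed, genes whose mean over all 6 libraries was below 0.1 FPKM were dropped, and EFTUD2 was set against control in limma 3.58.1 (lmFit and eBayes with trend, R 4.3.3), with Benjamini-Hochberg adjustment over all 17222 genes at 0.05. This scale understates the change of low genes. Single values were compared by exact two-sided permutation tests. The limma step was tested on simulated data.

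The members, and the lists of genes, were chosen with earlier results of these data known. Named besides the members were EFTUD2, the 2 genes of lowest p and those whose mean in the controls reached 50 FPKM in each list, of which those that bear on the members are given, 5 neighbours on each side and the 5 most alike genes. SLC30A1, SLC39A10, MTF1, HMOX1, HAMP, FKBP5, VIM, CD44, KRT7, S100A4, ATP7B, COL1A2, DCN, THY1, TYROBP and MT3 were named outside this rule, with their values seen. Names and positions came from RefSeq (GRCh38.p14), to which 18449 gene numbers matched, and coding sequences from GENCODE release 29. Python 3.11.15 (scipy 1.17.1, pandas 2.3.3) served for the other steps. Alternatives were other pseudocounts, filters and scalings, the replicate number as a block, robust moderation, array weights and each library left out in turn.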

Additional observations from a re-analysis of the deposited data

How the results depend on the processing

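Under the 17 alternatives tried, 0 of the 7 members tested reached an adjusted p under 0.05 by limma, with adjusted p from 0.066 (MT1M with array weights estimated gene by gene) to 1.0. The direction of MT1A turned with array weights (log2 fold change -0.06), and that of MT1X without control replicate 1 (-0.27) and without EFTUD2 replicate 2 (-0.07); the cause was not tested. Members higher at an unadjusted p under 0.05 by limma numbered 0 as reported, against 4.4% of all genes. They numbered 1 (MT1M) with pseudocounts of 0.1 and 0.01, a mean of at least 1 FPKM, median-of-ratios scaling, a common sum and array weights. The share of all genes passing under each of these settings is not given. With the replicate number as a block in limma they were 2, MT1A and MT1M, both at an adjusted p of 0.42. Whether libraries with the same number were paired is not stated. Their deviations correlated at -0.299, 0.353 and -0.094, and control replicate 1 correlated best with EFTUD2 replicate 3. As deviations within a group sum to 0, these values are tied to each other and cannot show whether libraries were paired.

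When each library was left out in turn, the members higher at an unadjusted p under 0.05 numbered 0 to 1, those with all EFTUD2 libraries above all controls 0 to 6, the 6 being without EFTUD2 replicate 3 (14.8% of all genes) and 1 each without control replicate 3 (10.2%) and without EFTUD2 replicate 1 (9.89%), and the log2 ratio of the sums 0.33 (without EFTUD2 replicate 2) to 1.05 (without EFTUD2 replicate 3), against 0.74 with all libraries. The median log2 fold change of the members tested was 0.19 without control replicate 1, 0.43 without EFTUD2 replicate 2 and 1.23 without EFTUD2 replicate 3. Without both control replicate 1 and EFTUD2 replicate 3, a choice made with their values in view, 5 members passed the unadjusted threshold as higher (9.3% of all genes). In that comparison the EFTUD2 libraries were above the controls for 6 members (21.2% of all genes). Of all genes at an unadjusted p under 0.05, 35.7% were higher as deposited and 61.4% with median-of-ratios scaling. An adjusted p under 0.05 was reached by 0 of all genes as reported, by 1355 with array weights, by 167 without EFTUD2 replicate 3 and by 16 without both libraries. The unknown depth limits what can be said of MT1H, MT1A and MT1M.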
